A study of Homo sapiens with 6 samples.

Results

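The introns of TTC28 held 495 clusters of nuclease-protected RNA recovered with Rbfox1 F125A and 800 recovered with wild-type Rbfox1 (WT). A cluster is a stretch of genome covered by sequenced RNA. These 1295 clusters are all rows of the intron lists whose gene field is TTC28, with repeated rows dropped, out of 554456 clusters in all (188027 F125A and 366429 WT). TTC28 was chosen by its number of clusters, which put it at rank 2 with F125A and rank 5 with WT among 11805 genes, so its counts and its ratio describe the choice and carry no test. The RNA came from complexes of FLAG-tagged Rbfox1 with LASR, a large assembly of splicing proteins, purified from HEK293 Flp-In cells. HEK293 is a human embryonic kidney line, and Flp-In lines take a transgene at a fixed genomic site. The groups were 2 libraries from cells carrying FLAG-Rbfox1(F125A), 3 from cells carrying FLAG-Rbfox1(WT) and 1 control library from cells with no transgene, all in the same Rbfox2 knockout line, KO#7. F125A replaces a phenylalanine in the RNA recognition motif of Rbfox1. The sources used here do not name the promoter of the transgenes.

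Each Rbfox1 group has 1 list that stands for all its libraries, with no read counts, so no value below has a replicate error and no test of the 2 proteins was possible. Shares and ratios carry exact (Clopper-Pearson) 95% intervals, which cover counting error only and treat neighbouring clusters as independent. Read depth is unknown, and the control library was not analysed here. The lists rest on 2 and 3 libraries, and they differ in size, with 1.95 WT clusters for each F125A cluster. In such bulk lists, fewer cells with a transcript and less transcript per cell cannot be told apart. The cell label could be checked only weakly. Of 5 genes expressed in HEK293 cells, VIM (4 F125A and 5 WT clusters) and NEFL (2 and 2) had intronic clusters, while KRT8, KRT18 and NEFM had none. Of 7 genes of liver, leukocytes, muscle and red cells, only PTPRC, a leukocyte phosphatase, had any, with 0 F125A clusters and 1 WT cluster.

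Rbfox proteins are splicing regulators that bind the RNA pentamer GCAUG, best when a U precedes it, and they act mostly from introns near the exons they regulate. LASR brings further RNA-binding proteins, among them several hnRNPs, into the same complex, and these contact RNA sequences of their own. TTC28, also called TPRBK, encodes a large protein built of tetratricopeptide repeats, which serve as protein-binding surfaces, and it has been described at the spindle midzone and midbody of dividing cells. On GRCh38 the gene lies on the minus strand of chromosome 22, from 27978014 to 28679840, a length of 702 kb. Distances below are taken from the annotated start at 28679840 along the direction of transcription. All 1295 clusters lay inside these bounds and on the minus strand, and no cluster of another gene lay inside them. The deposited lists class them as intronic, and they were not assigned to single introns here.

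The RNA sequence under 1 TTC28 cluster could be read. RefSeq gives TTC28 an internal start at 28443659, which lies 236 kb from the first. Its promoter window, 250 bases before to 50 after that start, held 1 WT cluster and no F125A cluster, at chr22:28443746-28443786 on the minus strand of GRCh38. This cluster, 41 nt long, lay at positions -127 to -87 from the internal start, inside the transcription unit of the longer transcript. It is shown because it holds the Rbfox pentamer and overlapped no F125A cluster. In both lines the letters run 5′ to 3′ with T for U, and capitals mark the pentamer GCATG.
WT cluster at the internal start: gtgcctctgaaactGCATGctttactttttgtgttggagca
The whole window, at chr22:28443610-28443909 on the minus strand: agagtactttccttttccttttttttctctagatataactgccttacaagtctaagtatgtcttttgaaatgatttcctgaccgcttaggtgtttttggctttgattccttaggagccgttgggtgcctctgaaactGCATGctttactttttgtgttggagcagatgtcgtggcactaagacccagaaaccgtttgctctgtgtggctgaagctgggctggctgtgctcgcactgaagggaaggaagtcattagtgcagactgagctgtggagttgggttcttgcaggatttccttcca

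The pentamer takes positions 15 to 19 of this cluster, counted from its 5′ end, and a T precedes it. The window holds GCATG once, here, and the same letters read on the opposite strand once, overlapping it. The window at the first annotated start also holds GCATG once, at positions -41 to -37 from that start, and no cluster of either list overlapped that window. Of 35116 RefSeq promoter windows of 300 bases, 19.6% hold GCATG on the transcribed strand and 29.5% on either strand, so a match in a window of this length is common. Over all genes, 590 F125A and 683 WT clusters lay wholly inside a promoter window of their own strand, with median lengths of 55 and 53 nt. Of these, GCATG was present in 19 F125A clusters, or 3.22% (1.95 to 4.98%), and in 68 WT clusters, or 9.96% (7.81 to 12.5%). Among the WT clusters, it was present in 49 of the 183 that overlapped no F125A cluster, or 26.8% (20.5 to 33.8%), and in 19 of the 500 that overlapped one, or 3.80% (2.30 to 5.87%). The TTC28 cluster belongs to the first of these classes. It is a single cluster, and the other clusters of the gene were not read for the pentamer, since no genome sequence was used.

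**Figure D1:**
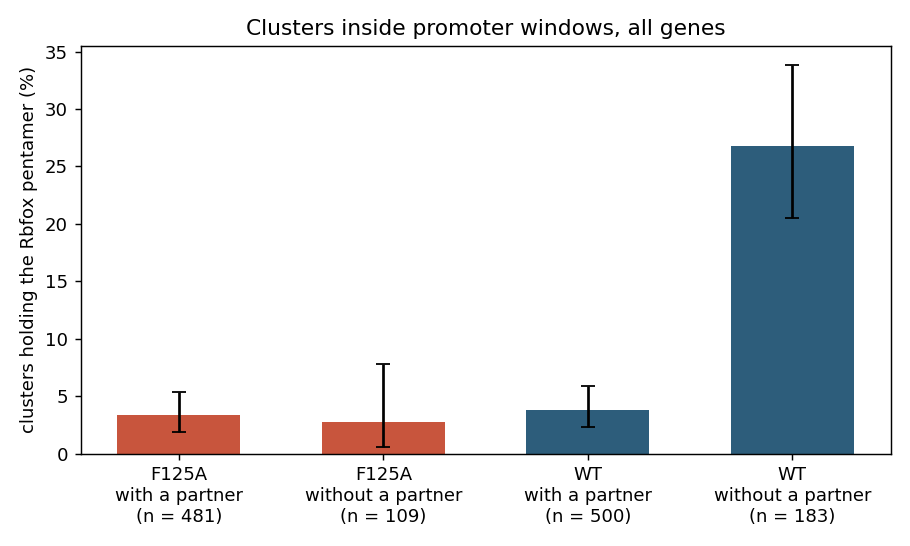
Share of clusters inside RefSeq promoter windows that hold the Rbfox pentamer, over all genes, by list and by overlap with a cluster of the other list; bars start at 0 and error bars are exact 95% intervals. F125A clusters lie at 3.33% with a partner and 2.75% without one, WT clusters at 3.80% with a partner and 26.8% without one, the class that holds the TTC28 cluster.

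TTC28 was dense in clusters for its length in both lists. There were 0.71 F125A and 1.14 WT clusters per kb, against medians of 0.13 and 0.32 over 898 genes of at least 200 kb that had at least 20 clusters in both lists together. Per kb, TTC28 ranked 20 with F125A and 32 with WT among these genes. The clusters covered 5.10% of the gene's length in the F125A list and 7.81% in the WT list. Among the 74 genes of 500 to 1000 kb with at least 200 clusters, TTC28 included, 1 gene had more F125A clusters per kb, which was ERC1, and 2 had more WT clusters per kb.

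Relative to the list totals, TTC28 leaned slightly to F125A. It had 1.62 WT clusters per F125A cluster, below the 1.95 of the whole lists. The log2 ratio of F125A to WT clusters, with 1 added to each count and scaled so that 0 stands for the ratio of the whole lists, was 0.27 (interval 0.11 to 0.43), a 1.21-fold difference. Over all 5626 genes with at least 20 clusters the median was 0.04, with quartiles of -0.26 and 0.36, and 68.8% of these genes lay at or below TTC28. TTC28 thus lay inside the middle range of all genes and short of a 2-fold difference, which 4.5% of the tested genes reached in either direction.

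In the 282 tested genes of 407 to 2299 kb, the median log2 ratio was -0.42, with quartiles of -0.70 and -0.19, and TTC28 lay 0.69 above that median. A higher ratio was found in 6 of the 282. Of the long genes with similar numbers of clusters, ERC1, which encodes a scaffold protein of the cell cortex, stood at 0.33 (0.14 to 0.51) with 398 F125A and 619 WT clusters. SLIT2, a secreted axon guidance ligand, stood at 0.04 (-0.12 to 0.20) with 476 and 903. PRKG1, a cGMP-dependent kinase, stood at -0.23 (-0.40 to -0.06) with 408 and 932, and AUTS2, a transcription and cytoskeleton regulator of neurons, at -0.25 (-0.39 to -0.11) with 631 and 1463.

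**Figure D2:**
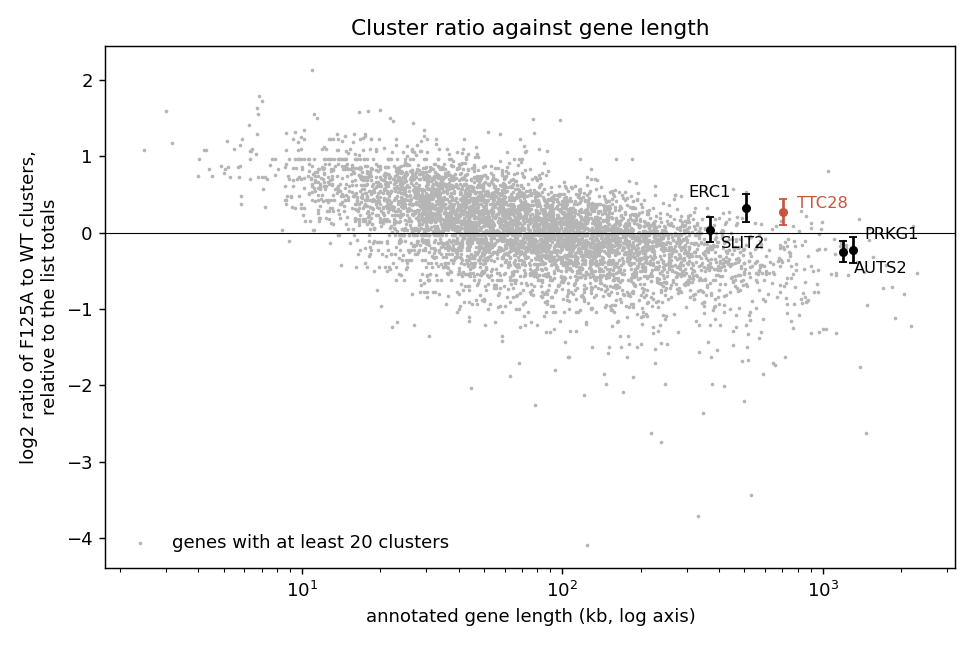
Log2 ratio of F125A to WT clusters relative to the list totals (vertical axis) against annotated gene length in kb (log axis) for genes with at least 20 clusters; grey points are genes, and error bars on the 5 named genes are exact binomial intervals. The ratio falls with length across the cloud, and TTC28, at 702 kb and 0.27, lies toward its upper edge beside ERC1.

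Along the gene, clusters were few in the first 50 kb, abundant over the next 200 kb and then thinned out to the end. The first 50 kb held 15 F125A and 23 WT clusters, or 0.30 and 0.46 per kb. The stretch of 50 to 150 kb held 183 and 239, or 1.83 and 2.39 per kb, and that of 150 to 250 kb held 150 and 262, or 1.50 and 2.62 per kb. These 200 kb carried most clusters of both lists. From 250 to 500 kb there were 124 F125A and 233 WT clusters (0.50 and 0.93 per kb), and from 500 kb to the end 23 and 43 (0.11 and 0.21 per kb). The bounds of these stretches were set after the profile was seen.

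The change at 50 kb was abrupt and lay at the same place in both lists. Between 40 and 50 kb there were 2 F125A clusters and 1 WT cluster, and between 50 and 60 kb there were 35 and 41, the most of any 10 kb window in either list. The last cluster before the change lay at 41.4 kb with F125A and at 41.2 kb with WT. The first after it lay at 50.5 kb in each list, at 28629350 to 28629401 with F125A and at 28629307 to 28629421 with WT. No cluster of either list had its centre in the roughly 9 kb between. RefSeq's table used here gives no start of TTC28 at this place.

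**Figure D3:**
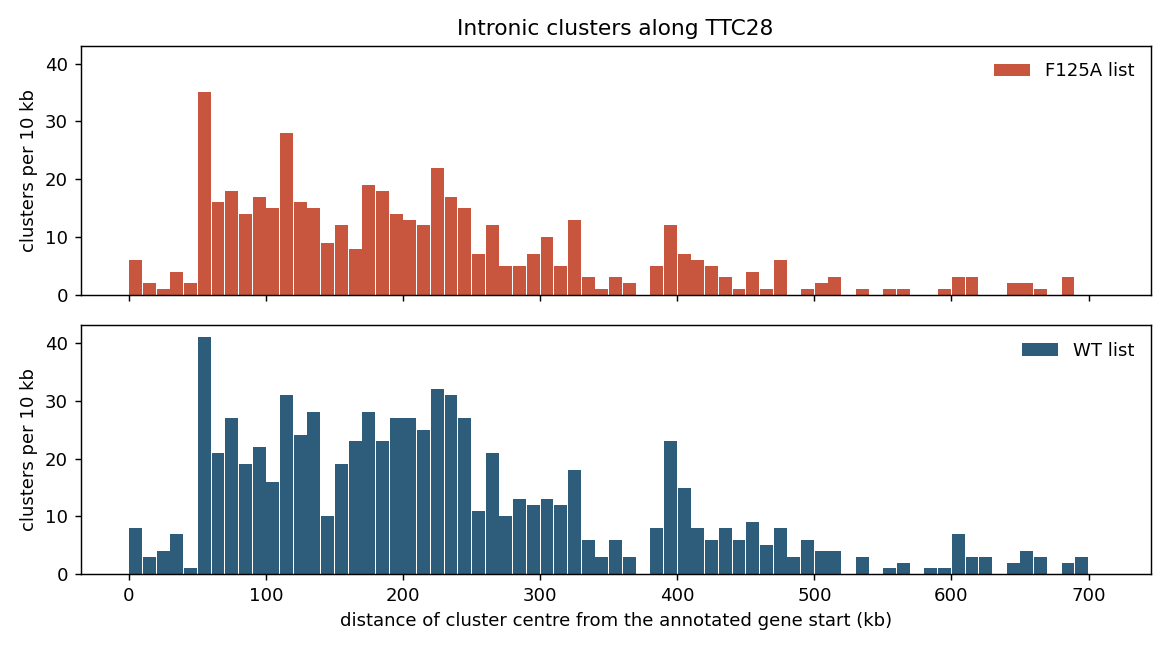
Clusters of TTC28 per 10 kb window (vertical axes, same scale) by distance of the cluster centre from the annotated gene start in kb, F125A list above and WT list below. Both lists are sparse up to 50 kb, peak in the window of 50 to 60 kb with 35 F125A and 41 WT clusters, and thin out beyond 250 kb with a smaller rise near 390 kb.

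The first 50 kb held 3.03% of the F125A and 2.88% of the WT clusters of TTC28. In the 74 genes of 500 to 1000 kb the medians were 18.3% and 15.2%, and 17 genes had a smaller F125A share and 13 a smaller WT share than TTC28. PRKG1 had no cluster at all in its first 50 kb in either list, and ERC1 had 5.28% and 7.27%. All the same, most TTC28 clusters lay in the first 50% of the gene's length, 84.0% with F125A (80.5 to 87.2%) and 80.5% with WT (77.6 to 83.2%). The medians over the same 74 genes were 72.1% and 67.7%. The midpoint of the clusters, by their median distance from the start, was 185 kb with F125A and 206 kb with WT. A larger share in this part with F125A was common, seen in 247 of the 329 genes of at least 200 kb with at least 200 clusters, and the difference in TTC28, 3.54 percentage points, was close to their median of 3.09.

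The lists followed each other closely along TTC28. Across its 71 windows of 10 kb the counts had a Pearson correlation of 0.95 and a Spearman correlation of 0.94, as a description, since the windows share the gene and its transcript level. Of the 71 windows, 58 had more WT than F125A clusters, 2 had more F125A clusters, 4 had equal counts and 7 were empty in both lists. No window with a F125A cluster lacked a WT cluster, whereas 4 windows had WT clusters only.

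The ratio was highest from 50 to 150 kb, where its log2 was 0.58 (0.29 to 0.86). It was 0.16 (-0.14 to 0.45) from 150 to 250 kb, 0.06 (-0.27 to 0.37) from 250 to 500 kb and 0.09 (-0.74 to 0.82) beyond 500 kb. In the sparse first 50 kb it was 0.38, with a wide interval of -0.70 to 1.35. The interval excluded 0 in the stretch of 50 to 150 kb alone, and differences between stretches were not tested. Since the bounds were set after the profile was seen, and neighbouring clusters are treated as independent, this is a description and no test. In windows of 50 kb, 11 had at least 20 clusters, and 10 of these lay above 0 and 1 below, with intervals that held 0 in 9 of the 11.

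Most places in TTC28 where F125A left a cluster also had one with WT. Counting any shared nucleotide on the same strand, 452 of the 495 F125A clusters had a WT partner, or 91.3% (88.5 to 93.6%). In all other clusters of the F125A list the share was 85.5%. In the other direction 462 of the 800 WT clusters overlapped an F125A cluster, or 57.8% (54.2 to 61.2%), against 45.1% of the other clusters of the WT list. Merged across lists, the clusters made 794 separate sites, of which 413 were in both lists, 43 in the F125A list only and 338 in the WT list only. A shorter F125A list limits how many WT clusters can find a partner, so a WT cluster without one is not shown to be lost with F125A.

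Among the 329 genes of at least 200 kb with at least 200 clusters, the median share of WT clusters with an F125A partner was 41.7%, and 8 genes exceeded TTC28. For F125A clusters with a WT partner the median was 90.6%, and TTC28 stood in the middle, with 140 genes above it and 188 below. ERC1 had shares of 91.5% for F125A and 60.7% for WT clusters, and AUTS2 95.4% and 43.2%. In the 5 genes closest to TTC28 in density (SCMH1, NF1, NFIA, EHMT1 and ANKRD11), 49.8% to 60.8% of WT clusters had a partner, a range that includes TTC28.

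Within TTC28, WT clusters were shared most often from 50 to 150 kb, where 170 of 239 had a partner, or 71.1% (64.9 to 76.8%). The share was 56.5% (50.2 to 62.6%) from 150 to 250 kb and 46.4% (39.8 to 53.0%) from 250 to 500 kb. It was 60.9% (38.5 to 80.3%) in the first 50 kb and 51.2% (35.5 to 66.7%) beyond 500 kb, so the shares did not fall steadily along the gene. The interval at 50 to 150 kb lay above those of the next stretches up to 500 kb, as a description, since the bounds were set after the profile was seen. From 50 to 150, 150 to 250 and 250 to 500 kb the density of F125A clusters was 1.83, 1.50 and 0.50 per kb, and its part in the shares was not tested. The shares of F125A clusters with a WT partner there were 91.8% (86.8 to 95.3%), 93.3% (88.1 to 96.8%) and 88.7% (81.8 to 93.7%).

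**Figure D4:**
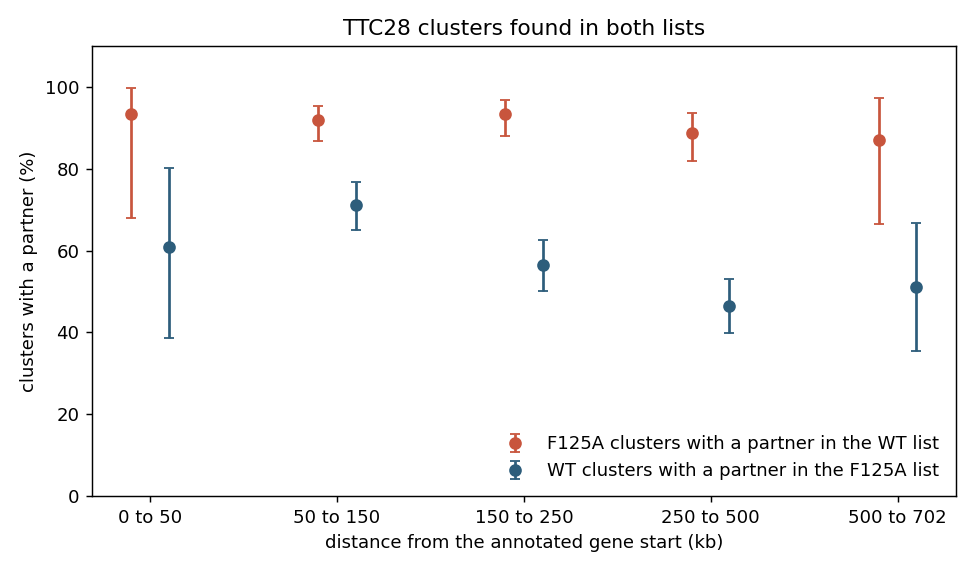
Share of TTC28 clusters that overlap a cluster of the other list, in percent, by distance from the annotated gene start in kb, with exact 95% intervals as error bars. F125A clusters stay between 87.0% and 93.3% throughout, and WT clusters range from 71.1% at 50 to 150 kb to 46.4% at 250 to 500 kb.

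Most clusters without a partner lay less than 1000 nt from a cluster of the other list. The gene is dense, with median gaps of 458 nt with F125A and 270 nt with WT. Whether these clusters lay nearer than other positions of the gene was not tested. The 43 F125A clusters with no WT overlap were a median of 161 nt from the nearest WT cluster, and 3 were 1000 nt or more away. The 338 WT clusters with no F125A overlap were a median of 313 nt from the nearest F125A cluster, and 63 were 1000 nt or more away. The farthest was 1696 nt away for F125A and 10145 nt for WT. The longest F125A cluster without a partner measured 153 nt, at 28409110 to 28409262, and the longest WT cluster without one measured 183 nt, at 28410418 to 28410600. These lie little more than 1 kb apart, about 270 kb from the start of the gene.

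The median length of TTC28 clusters was slightly above that of all other clusters in both lists. The median was 67 nt with F125A (quartiles 54 and 85 nt, range 22 to 231 nt) and 63 nt with WT (quartiles 50.8 and 81 nt, range 24 to 183 nt). All other clusters had medians of 64 nt with F125A and 60 nt with WT, and 43 of the 329 long genes had a longer F125A median and 43 a longer WT median. In the 5 genes closest in density the medians were 61 to 70 nt with F125A and 57 to 63 nt with WT, ranges that include TTC28. WT clusters without a partner were shorter, at a median of 59 nt, than those with a partner, at 66 nt, although the longest WT cluster had none. F125A clusters measured 67 nt with a partner and 70 nt without one. The order was the same in all other clusters. There, WT clusters measured 57 nt without a partner and 63 nt with one, and F125A clusters 68 and 63 nt. Since 1 shared nucleotide makes a partner, length and having a partner are not independent measures, and no correction for this was made. The longest cluster of all, 231 nt with F125A at 28495813 to 28496043, overlapped 1 WT cluster.

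**Figure D5:**
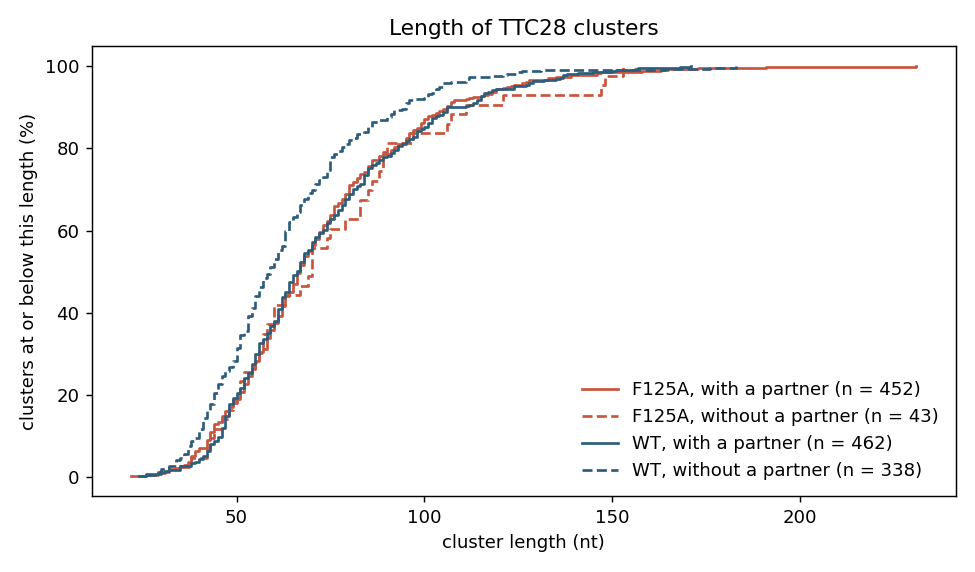
Cumulative share of TTC28 clusters (vertical axis, percent) by length in nt, for F125A (red) and WT (blue) clusters with a partner in the other list (solid) and without one (dashed). WT clusters without a partner have a median of 59 nt, and the other curves have medians of 66 to 70 nt.

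Where 1 F125A cluster met exactly 1 WT cluster, both marked nearly the same stretch of RNA. There were 358 such pairs in TTC28, with a median of 60 nt in common and a median of 81.4% of their joint length shared. The 5′ ends differed by a median of 4 nt and the 3′ ends also by 4 nt. Both ends were the same in 7 pairs, the 5′ end in 59 and the 3′ end in 45. In these pairs the F125A cluster was the longer in 145, the WT cluster in 200, and 13 were equal, so the longer F125A median of the whole gene did not hold among paired clusters. Other genes showed the same order, with F125A longer in 42.1% and WT in 50.7% of 139404 pairs.

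Clusters of TTC28 lay close together, as the density of a gene chosen by its number of clusters implies. The median gap between neighbours was 458 nt with F125A and 270 nt with WT, against medians of 1346 nt and 648 nt over the 329 long genes. Of the gaps, 8.70% with F125A and 8.51% with WT were 0 nt, so that 1 cluster began where the last one ended, and the medians over those genes were 3.70% and 4.92%. In the 5 genes closest in density the median gap was 384.5 to 748 nt with F125A and 246 to 475 nt with WT, ranges that include TTC28. Their shares of 0-nt gaps were 4.09 to 7.43% with F125A and 6.93 to 8.99% with WT, and ERC1 had 14.1% and 10.5%. Joining clusters less than 50 nt apart left 416 F125A and 640 WT groups, of which 15 and 29 held 3 clusters or more. The longest runs had 4 F125A clusters, 1 of them over 508 nt at 28628894 to 28629401, and 7 WT clusters over 565 nt at 28624503 to 28625067. Both of these runs lie in the peak at 50 to 60 kb. The longest stretch free of clusters measured 30.1 kb with F125A and 23.5 kb with WT, and both began 564 kb from the start.

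Of the other annotated RNAs inside TTC28, 1 long noncoding RNA spanned the most clusters. LOC101929594, whose bounds run from 115 to 166 kb, contained 70 F125A and 105 WT clusters, or 1.37 and 2.05 per kb. The stretches it crosses were denser, with 1.83 and 2.39 per kb from 50 to 150 kb and 1.50 and 2.62 from 150 to 250 kb. All these clusters are rows of TTC28 on its own strand, the minus strand. The strand of LOC101929594 was not used here, so whether its RNA gave any of these clusters was not tested. The noncoding gene TTC28-AS1, antisense by its name, reaches 24.7 kb into TTC28. That stretch held 3 F125A and 5 WT clusters, also on the strand of TTC28. No cluster overlapped the microRNA hairpin MIR5739, encoded on the opposite strand at 28459869 to 28459948, and the nearest lay 270 nt away with F125A and 275 nt with WT. The snoRNA LOC124905171 and the pseudogenes RN7SL757P and RN7SL162P were likewise free of clusters. These features measure only 0.068 to 0.301 kb, so few clusters could fall on them. Around the internal start, the 10 kb before it held 18 F125A and 31 WT clusters and the 10 kb after it 16 and 30, so density did not step up there.

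Genes of at least 200 kb that were most like TTC28 were found by the distance over 2 values, the log2 of F125A and of WT clusters per kb, among 1148 genes. The nearest was SCMH1, a polycomb protein gene, with 0.69 F125A and 1.11 WT clusters per kb (distance 0.05). It was followed by NF1, a Ras GTPase-activating protein gene (0.68 and 1.18, distance 0.08), NFIA, a nuclear factor I transcription factor gene (0.71 and 1.22, 0.10), EHMT1, a histone methyltransferase gene (0.66 and 1.12, 0.10), and ANKRD11, a chromatin regulator gene (0.77 and 1.20, 0.15). All are shorter than TTC28, at 215 to 386 kb. Their log2 ratios of F125A to WT clusters also lay above 0, at 0.29 in SCMH1, 0.16 in NF1, 0.18 in NFIA, 0.20 in EHMT1 and 0.33 in ANKRD11. Relative to genes of similar length they lay at 0.40 to 0.53. Matching on both densities also matches the ratio, so these values describe the choice of genes, and the ratio of TTC28 is not shown to be particular to it. In these shorter genes the first 50 kb, a larger part of each, held 24.8% to 40.3% of their F125A clusters and 25.6% to 35.7% of their WT clusters.

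The nearest protein-coding gene on each side of TTC28 had a log2 ratio close to it before any correction for length. These genes, CHEK2 and PITPNB, are only 54.1 and 67.6 kb long. The ratios of neighbours are given without intervals and were not set against genes of similar length. CHEK2, a checkpoint kinase gene on the same strand that ends 7.90 kb before the start of TTC28, had 25 F125A and 41 WT clusters (log2 ratio 0.27), all of them within its first 50 kb. PITPNB, a phosphatidylinositol transfer protein gene 58.8 kb beyond the end of TTC28, had 57 and 90 (0.31), at 0.84 and 1.33 per kb. ZNRF3, an E3 ubiquitin ligase gene, had 80 and 147 (0.09). Of the other protein-coding genes within 500 kb, MN1 had 2 and 11, HSCB 4 and 4, CCDC117 2 and 6, XBP1 3 and 2, KREMEN1 5 and 9, and C22orf31 none, all under 20 clusters.

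TTC28, chosen by its number of clusters, had more of them than any other gene named for tetratricopeptide repeats. That name rests on the repeat and not on a shared function. Clusters were present in 25 of 34 such genes, and 14 had enough to be compared. Of these, 10 had a log2 ratio above 0 and 4 below, and their median was 0.07 against 0.04 over all tested genes. None lay 2-fold or more toward F125A, where 1.99% of all tested genes lay. The 3 that lay 2-fold or more toward WT, where 2.51% of all tested genes lay, were TTC27 (3 F125A and 21 WT clusters, -1.50, interval -4.23 to -0.10), TTC6 (11 and 50, -1.12, -2.31 to -0.26) and TTC23 (5 and 23, -1.04, -2.99 to 0.19). With so few F125A clusters their intervals are wide, and that of TTC23 includes 0. The largest counts after TTC28 were those of TTC3, an E3 ubiquitin ligase gene with 105 F125A and 158 WT clusters (0.38), and TTC7B, which encodes a subunit of a phosphatidylinositol 4-kinase complex, with 81 and 155 (0.03). TTC17 had 46 and 87 (0.06), TTC13 37 and 73 (0.00), TTC19, a mitochondrial complex III assembly gene, 44 and 58 (0.57), and TTC39C 24 and 43 (0.15). Per kb, TTC3 (0.81 F125A and 1.22 WT clusters) and TTC19 (0.97 and 1.28) were denser than TTC28 (0.71 and 1.14). The other members named here were sparser per kb. Relative to genes of similar length, none of the 14 lay as far toward F125A as TTC28.

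Genes of the spindle midzone and cytokinesis, the setting in which TTC28 has been described, had ratios around 0. Clusters were present in 29 of 30 listed genes, and 25 had enough to be compared. Of these, 15 had a ratio above 0 and 10 below, between -0.57 and 0.75, and their median was 0.06. Over all tested genes, 53.5% had a ratio above 0. None of the 25 reached 2-fold in either direction, which 4.5% of all tested genes did, so a count of 0 among 25 says little about the list. CIT, the citron kinase of the midbody, had 62 F125A and 106 WT clusters (0.20), and MYH10, a nonmuscle myosin heavy chain, 49 and 97 (-0.01). The septin genes SEPTIN9 (47 and 86, 0.10) and SEPTIN7 (36 and 70, 0.02) encode filament-forming GTPases of the cleavage site. KIF4A, a midzone kinesin, had 40 and 87 (-0.14), and MYH9, the other main nonmuscle myosin, 30 and 70 (-0.23). None of the 25 lay as far toward F125A as TTC28 relative to genes of similar length, although 7 had a higher ratio before that correction.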

How the data were processed

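Per the labels' protocols, a linker was joined to the RNA, primers with 4-nt molecular identifiers were used for reverse transcription, and inserts of 20 to 80 nt were kept. Per the submitters' processing notes, cutadapt, STAR and the hg38 build were used. Versions, the cluster caller and the pooling of libraries are not stated there. The deposited lists give, per the file headers, chromosome, start, end, gene, region and strand of each cluster, in nt and with no score. Positions are printed 1-based, starts having been taken as 0-based. Repeated rows (4851 F125A and 7029 WT, 0 of TTC28) were dropped. A run of 5433 consecutive rows, with 3249 distinct clusters and 0 of TTC28, was identical in both lists and was kept. Its clusters count as partners of each other in the values for all other clusters.

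Samples were grouped by title. Gene names were matched to the RefSeq table of GRCh38.p14 by symbol (11720) or unique synonym (79), and 6 had no match. Promoter windows are RefSeq's for the same assembly. Similar length means the same of 20 bins. Overlap and ratios were tested on simulated data. Python 3.11.15, pandas 2.3.3 and scipy 1.17.1 were used. Members and lists were chosen with earlier results of these data known. Besides TTC28, the genes named were the 5 most like it, 4 long genes for comparison, protein-coding neighbours within 500 kb, and of 2 gene lists the 6 with most clusters and those at 2-fold. The control sample was not used here.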

Additional observations from a re-analysis of the deposited data

How the results depend on the processing

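Of 28 values recomputed under another setting, 22 stayed within the counting interval of the value reported, or within 1.5 times the count, and 6 moved. Some of the 22 could not have moved, so their number is no measure of robustness. TTC28 has no repeated rows, so keeping repeats left its cluster lengths and positions as they were. Centring on the median gene shifts all genes alike, so it cannot change the ratio relative to genes of similar length. The share of F125A clusters with a WT partner was 87.7% when at least 50% of the cluster had to be covered. The share of WT clusters with an F125A partner was 63.5% when clusters less than 50 nt apart counted as overlapping. With clusters less than 50 nt apart merged, the median length was 71 nt for F125A and 70 nt for WT, since merging joins neighbours. The 253 genes at 2-fold or more became 536 with a minimum of 10 clusters and 148 with 5 added in place of 1. The log2 ratio of TTC28 ranged from 0.23 to 0.30, and that relative to genes of similar length from 0.62 to 0.74. No paired analysis was possible because each group has 1 list for all its libraries, and no library could be left out for the same reason. Without read counts, depth limits how firmly the absence of a partner can be read.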
